A study of Rattus norvegicus with 9 samples.

Results

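Mitotic and cyclin genes were followed in the RNA of alveolar macrophages, which clear particles and debris from the airways' end sacs, from male Wistar rats. The set was chosen by symbol: Mki67, Ccna2, Ccnb1, Cdk1, Top2a and Kif11, which serve S phase and mitosis, and the G1 cyclin genes Ccne2 and Ccnd1. Earlier results of these data were known at the choice, so shares of all genes beside its counts are not a test of the set. Of the 8 genes, 7 had a row in the deposited matrix, out of 17109 genes in all, and each of the 7 rested on a single transcript row and passed the filter on low values. Top2a, which encodes the topoisomerase that untangles sister chromatids, had no row under its RefSeq accession and is not analysed here.

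The libraries formed 3 groups of 3 biological replicates. Rats weighing 225 to 250 g received nitrogen mustard (NM, mechlorethamine hydrochloride, a DNA cross-linking agent) at 0.125 mg/kg into the trachea under isoflurane, and their macrophages were taken 28 d or 1 d later. The third group received phosphate-buffered saline (PBS) the same way, and the day of its collection was not given in the sources used here. Values are FPKM, fragment counts scaled by transcript length and sequencing depth, so levels of genes of different length can be set side by side. The cells were a bulk preparation, in which fewer cells of a type and less RNA per cell cannot be told apart.

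A cell divides by switching cyclin-dependent kinases (CDKs) on and off in order. D cyclins, bound to CDK4 or CDK6, start the release of E2F transcription factors from the retinoblastoma protein, and E cyclins, bound to CDK2, carry the cell into S phase. Cyclin A acts in S phase and G2, and cyclin B with CDK1 drives mitosis. Genes of G2 and mitosis are repressed in resting cells by the DREAM complex, which reads a promoter element called CHR, and are switched on through the same element by B-MYB and FOXM1. E cyclin genes are E2F targets that peak earlier in the cycle. Alveolar macrophages keep their number in healthy lung largely by dividing in place.

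The promoters of the mitotic genes are shown first, and their part in the levels measured here was not tested. RefSeq (build GRCr8) gave a promoter window for 4 of the 7 genes, Mki67, Cdk1, Kif11 and Ccnb1, matched by symbol. Each line gives the 250 bases before the transcript start on the gene's own strand, 5′ to 3′, with matches of 3 motifs in capitals on either strand. CHR was searched as TTTGAA and as the form with A for G, TTTAAA. The box bound by NF-Y was searched as CCAAT, and E2F as TTTCCCGC, TTTGGCGC, TTTCGCGC and TTTGCCGC.
Mki67, chr1:199952594-199952843, minus strand: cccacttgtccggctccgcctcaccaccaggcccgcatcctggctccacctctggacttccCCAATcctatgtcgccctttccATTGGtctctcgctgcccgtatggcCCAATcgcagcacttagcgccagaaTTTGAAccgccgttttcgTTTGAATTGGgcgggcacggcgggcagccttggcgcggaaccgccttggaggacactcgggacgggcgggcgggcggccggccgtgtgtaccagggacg
Cdk1, chr20:19265043-19265292, plus strand: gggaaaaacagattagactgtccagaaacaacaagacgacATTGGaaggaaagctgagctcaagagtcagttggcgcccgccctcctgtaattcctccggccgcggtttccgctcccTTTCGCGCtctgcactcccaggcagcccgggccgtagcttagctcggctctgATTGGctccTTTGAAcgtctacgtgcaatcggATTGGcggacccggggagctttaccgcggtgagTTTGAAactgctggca
Kif11, chr1:244536617-244536866, plus strand: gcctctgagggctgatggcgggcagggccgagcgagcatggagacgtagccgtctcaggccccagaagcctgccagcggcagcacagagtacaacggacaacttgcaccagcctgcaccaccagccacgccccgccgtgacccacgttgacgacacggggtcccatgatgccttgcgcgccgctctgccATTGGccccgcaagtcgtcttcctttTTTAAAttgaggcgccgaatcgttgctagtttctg
Ccnb1, chr2:33655226-33655475, minus strand: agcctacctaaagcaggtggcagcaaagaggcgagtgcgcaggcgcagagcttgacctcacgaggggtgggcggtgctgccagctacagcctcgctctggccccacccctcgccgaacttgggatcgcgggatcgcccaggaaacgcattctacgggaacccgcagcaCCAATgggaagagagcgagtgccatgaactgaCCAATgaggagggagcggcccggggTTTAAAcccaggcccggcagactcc

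All 4 windows held a CHR match and a CCAAT match. CHR lay at positions -117 and -99 from the start in Mki67, where the second match runs into an inverted CCAAT, at -72 and -16 in Cdk1, at -35 in Kif11 and at -25 in Ccnb1. Cdk1 alone of the 4 held an E2F match, at -133. Over all 33469 RefSeq promoter windows of 300 bases (250 before and 50 after the start), 28.3% held CHR, 37.5% CCAAT and 2.1% E2F by the same letters. Among 45 windows of other G2 and mitosis genes, 39 held CHR (86.7%), 33 CCAAT (73.3%) and 1 E2F (2.2%). A match of letters is not a measured binding site.

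The resident alveolar macrophage list (8 of 12) summed to 1808.9 to 2033.7 FPKM in NM day 28, 1563.4 to 1791.4 in NM day 1 and 1554.0 to 2938.7 in PBS. Differences were tested with limma on log2(FPKM + 1) over 9885 genes and called at a Benjamini-Hochberg adjusted p under 0.05. Of 6 genes of the list tested, Car4 rose and Mrc1 fell in NM day 28, and Car4 rose and Pparg fell in NM day 1 against PBS, while Marco and Fabp1 were listed at 0 in all libraries. The B cell, endothelial and erythroid lists had 1, 2 and 4 genes tested and 0 called in NM day 28 against PBS. In NM day 1 the B cell and endothelial lists each had 1 called higher and the erythroid list 0. Over all genes tested, 3.07% were called higher and 3.98% lower in NM day 28 than in PBS. The shares for NM day 1 were 5.28% and 4.58%. Relative depth, estimated from transcripts below 1 FPKM in a library and in NM day 1 replicate 0, lay between 1.03 and 1.12 in NM day 28, 1 and 1.47 in NM day 1 and 1.42 and 2.58 in PBS, with NM day 1 replicate 0 set to 1. Transcript rows above 0 numbered 11149 to 11339 in NM day 28, 12112 to 12516 in NM day 1 and 12145 to 12241 in PBS. The RefSeq table lists a pseudogene each for Mki67, Cdk1 and Kif11, and how reads shared with such copies were counted was not given in the sources used here.

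Most of the measured mitotic transcripts were low 28 d after NM, and Ccne2 was high in the same libraries. Against PBS, Mki67, Ccna2 and Cdk1 fell, Kif11 lay lower without passing the test, Ccnb1 differed by less than its spread, and the cyclin D1 gene Ccnd1 fell. Ccne2 rose to 2.53 times its PBS mean. Of the 7 genes 4 were called lower and 1 higher in NM day 28 than in PBS, where 3.98% of all genes tested were called lower and 3.07% higher. All NM day 28 libraries lay below all PBS libraries for 5 of the 7 genes and above them for 1, where 14.4% and 12.7% of all genes tested did so.

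Mki67 encodes Ki-67, a protein that coats mitotic chromosomes and marks cycling cells. Its level was 7.25, 6.47 and 7.33 FPKM in the NM day 28 libraries, 19.0, 23.7 and 22.2 FPKM at NM day 1, and 13.8, 18.7 and 18.3 FPKM in PBS. Every NM day 28 library lay below every other library. The mean fell to 0.414 times that of PBS (log2 fold change -1.15, SE 0.18, limma adjusted p = 0.0032) and to 0.325 times that of NM day 1 (-1.49 ± 0.18, adjusted p = 0.000534). Both calls held in all 20 alternative settings.

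Cdk1 encodes the kinase that starts mitosis. It stood at 15.6, 5.68 and 13.8 FPKM in NM day 28, at 49.9, 34.6 and 34.9 FPKM in NM day 1, and at 35.4, 31.4 and 26.9 FPKM in PBS. NM day 28 did not overlap the other groups, and the other groups overlapped each other. NM day 28 replicate 1 was the lowest of all. The fitted log2 fold change of NM day 28 against PBS was -1.44 ± 0.30 (SE, adjusted p = 0.0144 by limma), and -1.03 without that replicate (adjusted p = 0.0114). The call ended only without PBS replicate 1 (adjusted p = 0.0555).

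Ccna2 encodes cyclin A2, the partner of CDK2 in S phase and of CDK1 later. Its FPKM were 2.50, 1.99 and 2.75 in NM day 28, 7.23, 9.71 and 11.5 in NM day 1, and 6.47, 5.43 and 4.06 in PBS. The 3 groups did not overlap, with NM day 1 on top and NM day 28 at the bottom. Against PBS, NM day 28 was lower by a narrow call (log2 fold change -0.88, SE 0.24, limma adjusted p = 0.0461), which ended in 15 of 20 alternative settings (adjusted p from 0.0328 to 0.161). Against NM day 1 it fell by 1.60 on the log2 scale (adjusted p = 0.00158), a call that held in all 20.

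Kif11 encodes Eg5, the motor that pushes spindle poles apart. It measured 1.97, 1.5 and 2.50 FPKM in NM day 28, 6.73, 6.23 and 6.49 FPKM in NM day 1, and 3.53, 3.47 and 3.51 FPKM in PBS. The groups did not overlap. NM day 28 lay below PBS without passing (log2 fold change -0.60, SE 0.21, limma adjusted p = 0.107) and was lower than NM day 1 (-1.34 ± 0.21, adjusted p = 0.00228).

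Ccnb1, which encodes the mitotic cyclin B1, passed the test in no comparison. It had 3.55, 2.55 and 3.66 FPKM in NM day 28, 3.79, 2.09 and 4.73 FPKM in NM day 1, and 3.71, 3.51 and 1.85 FPKM in PBS. All 3 groups overlapped. The log2 fold change against PBS was 0.10 ± 0.29 (SE, adjusted p = 0.875 by limma) for NM day 28 and 0.16 ± 0.29 (adjusted p = 0.784) for NM day 1, and the sign turned without PBS replicate 2 in both and with quantile normalisation in the second. Its promoter window held CHR and CCAAT matches, as did those of Mki67, Cdk1 and Kif11. CHR had the form TTTAAA in Ccnb1 and Kif11 and TTTGAA in Mki67 and Cdk1. The part of these matches in its level was not tested.

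**Figure D1:**
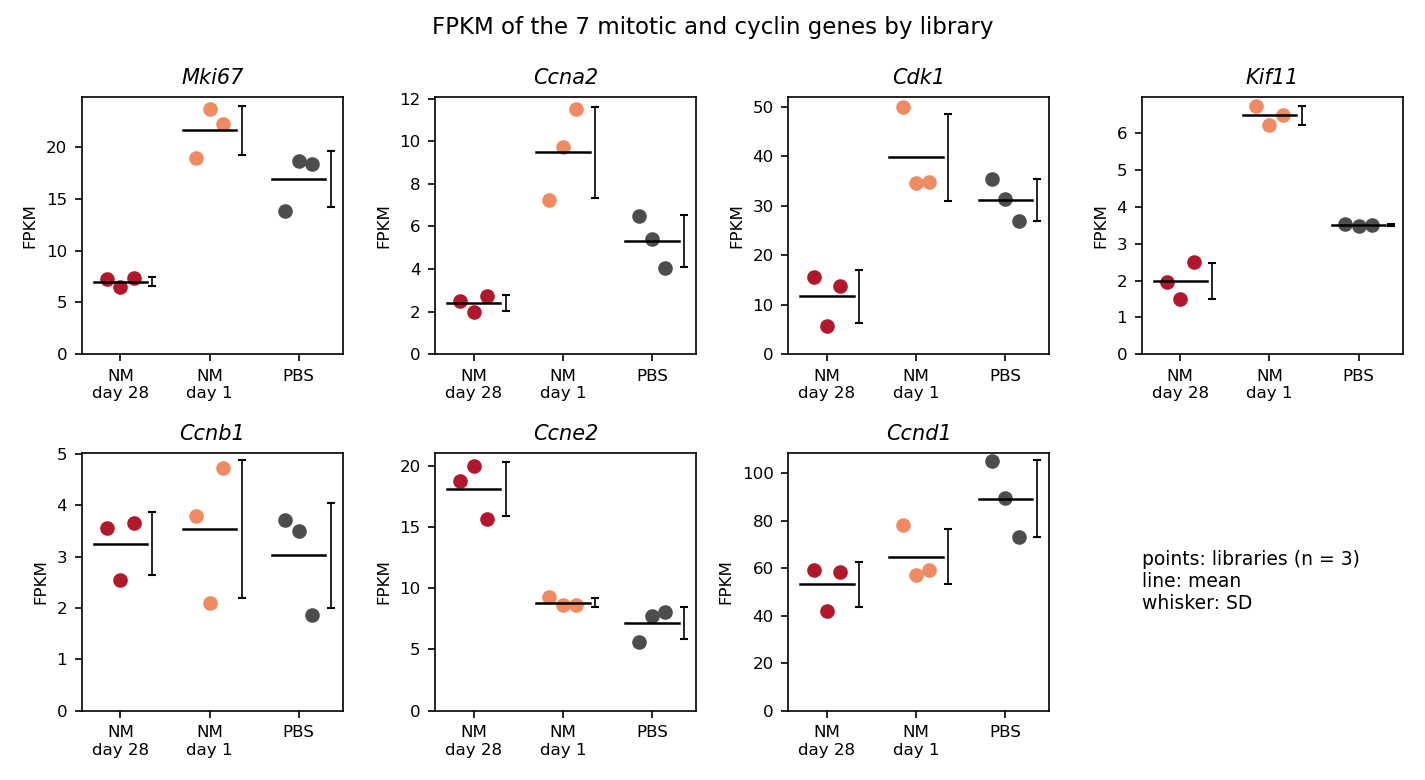
FPKM (vertical axes, from 0) of each gene in the NM day 28, NM day 1 and PBS libraries, with the mean as a line and the SD as a whisker (n = 3 libraries a group). The NM day 28 points of Mki67, Ccna2, Cdk1 and Kif11 lie below all others and those of Ccne2 above all others, while the groups of Ccnb1 overlap.

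The G1 cyclin genes gave opposite signs against PBS in NM day 28. Ccne2 encodes cyclin E2, which with CDK2 opens S phase. Its level was 18.8, 19.97 and 15.7 FPKM in NM day 28, 9.26, 8.61 and 8.61 FPKM in NM day 1, and 5.63, 7.75 and 8.08 FPKM in PBS. Every NM day 28 library lay above every other library, and every NM day 1 library above every PBS library by a smaller margin. NM day 28 was higher than PBS (log2 fold change 1.24, SE 0.19, limma adjusted p = 0.00301) and than NM day 1 (0.95 ± 0.19, adjusted p = 0.00785), and both calls held in all 20 alternative settings. NM day 1 against PBS did not pass (0.28 ± 0.19, adjusted p = 0.39).

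Ccnd1 encodes cyclin D1, which links growth signals to the cycle. It had 59.2, 42.1 and 58.2 FPKM in NM day 28, 78.0, 56.9 and 59.2 FPKM in NM day 1, and 105.3, 89.6 and 72.9 FPKM in PBS. NM day 28 lay below PBS in every library, and NM day 1 overlapped both. The call for NM day 28 against PBS was narrow (log2 fold change -0.74, SE 0.20, limma adjusted p = 0.043) and ended in 11 of 20 alternative settings (adjusted p from 0.0266 to 0.147). Ccnd1 was the gene of the set with the highest FPKM in each group, at 53.2 ± 9.57 in NM day 28, 64.7 ± 11.6 in NM day 1 and 89.3 ± 16.2 in PBS (mean ± SD, n = 3).

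The order of levels changed with Ccne2. In NM day 28, Ccne2 ranked 2 of 7 at 18.1 ± 2.22 FPKM, above Cdk1 at 11.7 ± 5.29 and Mki67 at 7.02 ± 0.472 (mean ± SD, n = 3). In NM day 1 it ranked 5 of 7 at 8.83 ± 0.376 FPKM, next to Ccna2 at 9.48 ± 2.14 and within its spread. In PBS it ranked 4 of 7 at 7.15 ± 1.33 FPKM, between Mki67 at 16.9 ± 2.71 and Ccna2 at 5.32 ± 1.21. Kif11 and Ccnb1 were at the low end in PBS, at 3.50 ± 0.031 and 3.02 ± 1.02 FPKM, and did not differ beyond the spread of Ccnb1.

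Leaving out NM day 28 replicate 0, 1 or 2, NM day 1 replicate 1 or 2, or PBS replicate 0 left 3 of the 5 calls for NM day 28 against PBS, and leaving out PBS replicate 1 left 2. The 5 calls for NM day 28 against NM day 1 (4 lower and 1 higher) held when any single library was left out. In that comparison 6.88% of all genes tested were called lower and 4.75% higher. All NM day 28 libraries lay below all NM day 1 libraries for 4 of the 7 genes and above them for 1, where 15.7% and 15.1% of all genes tested did so. Within NM day 28, replicate 1 had the lowest value of 6 of the 7 genes and the highest of Ccne2.

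**Figure D2:**
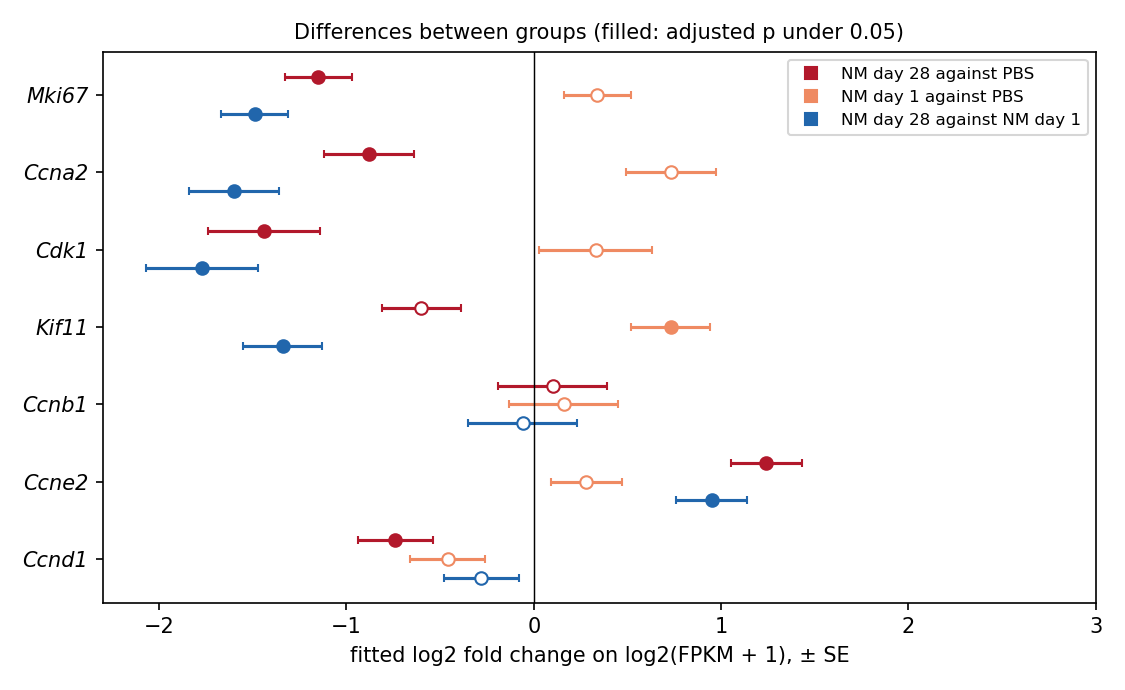
Fitted log2 fold changes on the log2(FPKM + 1) scale (horizontal axis, ± SE) of the 7 genes for NM day 28 against PBS, NM day 1 against PBS and NM day 28 against NM day 1. Filled points had an adjusted p under 0.05. In both NM day 28 comparisons Ccne2 lies right of 0 and Mki67, Ccna2, Cdk1 and Kif11 lie left of it, while in NM day 1 against PBS all 5 lie right of 0.

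Ccne2 was set against the 5 measured mitotic genes (Mki67, Ccna2, Ccnb1, Cdk1 and Kif11) within each library, as the log2(FPKM + 1) of Ccne2 minus the mean of theirs. The difference was 1.77, 2.32 and 1.48 in NM day 28, -0.29, -0.27 and -0.49 in NM day 1, and -0.55, -0.14 and 0.16 in PBS. NM day 28 stood apart from both other groups, at 1.86 ± 0.42 against -0.17 ± 0.36 in PBS (mean ± SD, n = 3). In ratios of FPKM, Ccne2 stood between 5.69 and 10 times Ccna2 in NM day 28, at 1.28, 0.887 and 0.749 times in NM day 1, and at 0.87, 1.43 and 1.99 times in PBS. Against Mki67 the ratio lay between 2.14 and 3.08 in NM day 28, between 0.364 and 0.488 in NM day 1 and between 0.407 and 0.441 in PBS. These are descriptions with no test of their own, since the genes were chosen for the contrast.

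**Figure D3:**
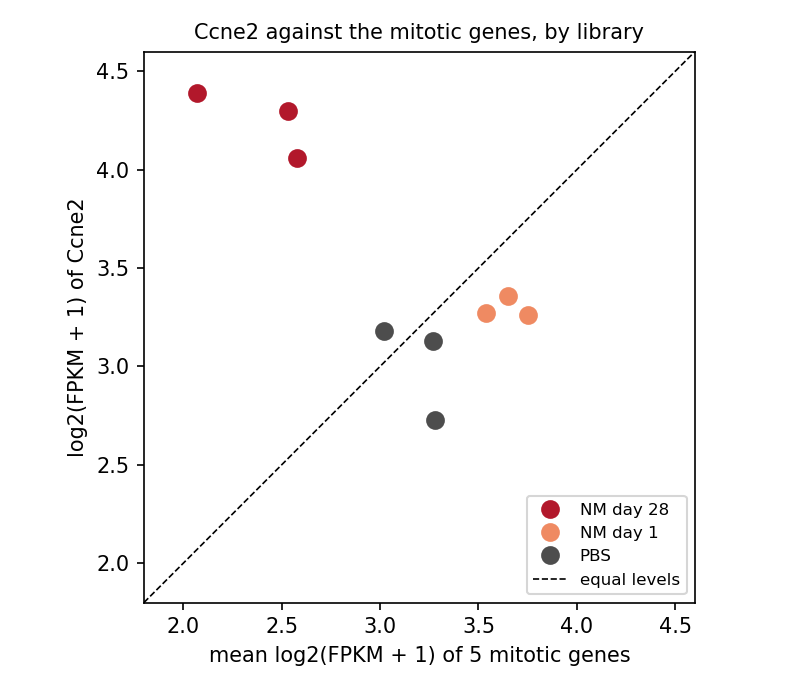
Log2(FPKM + 1) of Ccne2 (vertical axis) against the mean log2(FPKM + 1) of the 5 mitotic genes (horizontal axis), one point per library, with a dashed line of equal levels. The NM day 28 libraries lie 1.48 to 2.32 above the line, while those of NM day 1 and PBS lie between 0.55 below and 0.16 above it.

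At 1 d after NM, Kif11 was the only gene of the 7 that was called (6.49 ± 0.25 FPKM in NM day 1 against 3.50 ± 0.031 in PBS, mean ± SD, n = 3), a log2 fold change of 0.73 with SE 0.21 and limma adjusted p = 0.0495. In this comparison 5.28% of all genes tested were called higher and 4.58% lower. The Kif11 call ended in 14 of 20 alternative settings, among them leaving out any NM day 1 or PBS library or NM day 28 replicate 0 (highest adjusted p 0.161). Ccna2 had a fold change of the same size that did not pass (0.73 ± 0.24, adjusted p = 0.0757), and Mki67 and Cdk1 had 0.34 ± 0.18 and 0.33 ± 0.30 (adjusted p = 0.269 and 0.543). All NM day 1 libraries lay above all PBS libraries for Mki67, Ccna2, Kif11 and Ccne2, 4 of the 7 genes, where 15.2% of all genes tested did so. Ccnd1 stood at -0.46 ± 0.20 (adjusted p = 0.169), and no member lay below PBS in all libraries, as 18.1% of genes tested did. Both NM groups were set against the same PBS libraries, so their values are not independent.

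Marker lists of other cells were summed in the same libraries. Beside their counts, 3.07% of all genes tested were called higher and 3.98% lower in NM day 28 than in PBS. In NM day 1 against PBS the shares were 5.28% and 4.58%. Summed FPKM of the T cell list (12 of 12 genes in the matrix) ran from 29.9 to 40.5 in NM day 28, from 63.8 to 73.6 in NM day 1 and from 23.0 to 34.4 in PBS, with 0 of 9 tested called in NM day 28 and 3 called higher in NM day 1 against PBS. Of the T cell genes, Cd3e and Cd3d were listed at 0 in every NM day 28 library, Cd28 in every NM day 1 library, and Cd3e and Cd28 in every PBS library. Cd3e was also at 0 in NM day 1 replicates 0 and 2, while Cd3d was above 0 in all NM day 1 libraries (1.27, 1.87 and 0.428 FPKM). Other T cell genes were detected in every library, among them Lck (11.7, 15.4 and 15.6 FPKM in NM day 28, 10.4, 5.91 and 12.99 in NM day 1, and 12.7, 15.6 and 8.79 in PBS) and Il7r (10.5, 6.60 and 7.03 FPKM in NM day 28, 27.7, 22.8 and 23.2 in NM day 1, and 12.5, 6.33 and 6.17 in PBS). The 3 called higher in NM day 1 were Il7r, Cd2 and Cd8a, while Lck was not called. Cd2 and Cd8a had means of 10.8 and 11.2 FPKM in NM day 1 against 1.53 and 3.80 in PBS. The alveolar epithelial list (15 of 16) ran from 279.7 to 385.9 in NM day 28, from 1036.2 to 3082.6 in NM day 1 and from 233.2 to 386.4 in PBS, with 1 of 14 called higher and 2 lower in NM day 28 and 10 higher in NM day 1 against PBS. Sftpd was listed at 0 in all libraries. Napsa was the largest part of the sum in every NM day 28 library (241, 168 and 239 FPKM) and PBS library (184, 154 and 128 FPKM). The 2 called lower in NM day 28 were Aqp5 (mean 0.786 FPKM against 7.89 in PBS) and Krt18 (1.23 against 15.4). The 1 called higher was Hopx (65.8 against 30.3). The monocyte list (12 of 12) ran from 171.6 to 253.5 in NM day 28, from 232.0 to 330.2 in NM day 1 and from 126.4 to 134.2 in PBS, with 3 of 11 called higher in NM day 28 and 8 in NM day 1 against PBS, and Ccr2 and Ly6c were listed at 0 in PBS. The neutrophil list (11 of 12) ran from 572.7 to 1065.9 in NM day 28, from 717.0 to 1035.0 in NM day 1 and from 291.0 to 457.1 in PBS, with 4 of 8 called higher in NM day 28 and 5 higher and 1 lower in NM day 1, and Retnlg was listed at 0 in PBS. Most of the PBS sum was Cxcr1 (373, 274 and 218 FPKM), the gene called lower in NM day 1. S100a9, called higher at both times, had a mean of 248 FPKM in NM day 28, 292 in NM day 1 and 4.15 in PBS. Marker genes called lower in NM day 28 against NM day 1 numbered 12 of 14 of the alveolar epithelial list, 5 of 11 of the monocyte list, 3 of 9 of the T cell list, 2 of 8 of the neutrophil list, 2 of 2 of the endothelial list, 1 of 1 of the B cell list and 0 of 4 of the erythroid list. The resident alveolar macrophage list had 0 of 6 called lower. In the same comparison 1 gene each of the alveolar epithelial (Napsa), neutrophil (Cxcr1) and resident alveolar macrophage (Pparg) lists was called higher. Of all genes tested, 6.88% were called lower and 4.75% higher. The lower calls of the marker lists ran in the same direction as those of Mki67, Ccna2, Cdk1 and Kif11. The part of the other cells in the levels of the mitotic genes and Ccne2 was not tested.

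The wider G2 and mitosis genes were read from a list of 50, of which 42 were tested. In NM day 28 against PBS 8 fell and 0 rose, with a median log2 fold change of -0.53 (-0.04 over all genes tested), where 3.98% of all genes tested were called lower and 3.07% higher. All NM day 28 libraries lay below all PBS libraries for 22 of the 42, as they did for 14.4% of all genes tested. Cdca8, a subunit of the chromosomal passenger complex, stood at 2.83 ± 0.267 FPKM in NM day 28 against 9.93 ± 4.03 FPKM in PBS (mean ± SD, n = 3), a log2 fold change of -1.45 with SE 0.26 and limma adjusted p = 0.00739. Cenpf, which binds kinetochores, Tpx2, which activates Aurora A on the spindle, and Ube2s, a ubiquitin enzyme of the anaphase-promoting complex, fell too (-1.35, -0.95 and -1.58). The count fell to 5 without NM day 28 replicate 0 or PBS replicate 0 and to 2 without PBS replicate 1. It was 4 without a filter, 5 with isoforms tested singly and 3 with only the 6 libraries compared.

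Against NM day 1, 26 of the 42 were lower in NM day 28 and 0 higher (median -1.01, against 0.00 over all genes tested), where 6.88% of all genes tested were called lower and 4.75% higher. All NM day 28 libraries lay below all NM day 1 libraries for 32 of the 42, as they did for 15.7% of all genes tested. Tpx2 stood at 3.37 ± 0.251 in NM day 28 and 10.1 ± 0.915 FPKM in NM day 1 (mean ± SD, n = 3), a log2 fold change of -1.34 with SE 0.20 and limma adjusted p = 0.00169. Cenpa, the histone variant of centromeres, stood at 1.28 ± 0.874 FPKM in NM day 28 and 6.21 ± 1.00 FPKM in NM day 1 (-1.72), and Bub1, a kinase of the spindle checkpoint, at 3.02 ± 0.176 FPKM in NM day 28 and 8.68 ± 1.35 FPKM in NM day 1 (-1.26). Without NM day 1 replicate 0, 16 were called. At NM day 1 against PBS 3 of the 42 rose, Cks2, a CDK-binding protein (1.18), Bub1 (0.87) and the condensin subunit Smc4 (0.63), with a median of 0.39, where 5.28% of all genes tested were called higher. That count was 0 without NM day 1 replicate 0, 1 without NM day 1 replicate 2, PBS replicate 1 or PBS replicate 2, and 5 without NM day 28 replicate 1.

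**Figure D4:**
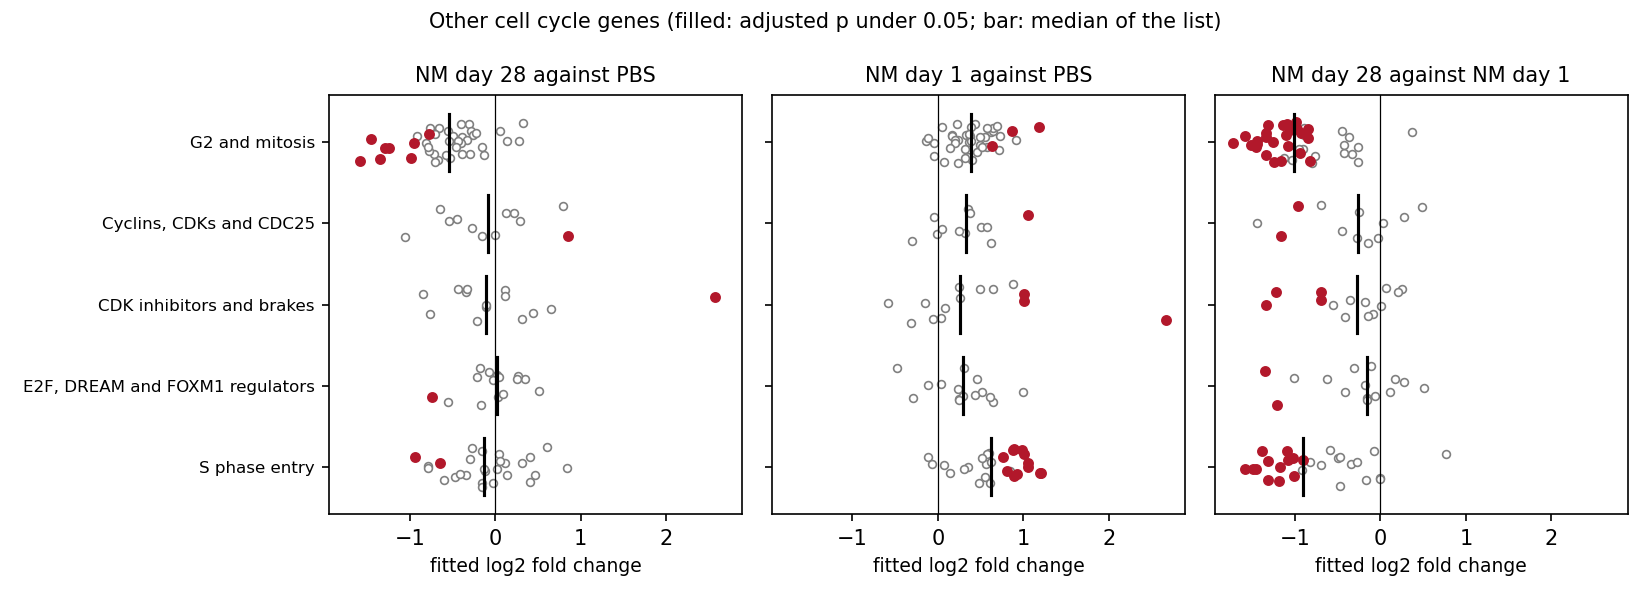
Fitted log2 fold changes (horizontal axes) of other cell cycle genes by list, for NM day 28 against PBS, NM day 1 against PBS and NM day 28 against NM day 1. Each point is a gene, filled where the adjusted p was under 0.05, and bars mark list medians. The G2 and mitosis median lies at -0.53, 0.39 and -1.01, and the S phase median at -0.13, 0.62 and -0.91.

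Among 15 E2F, DREAM and FOXM1 regulators tested, Foxm1, which activates G2 and mitosis genes, was the only one called lower in NM day 28 than in PBS (5.02 ± 0.964 FPKM in NM day 28 against 9.06 ± 1.69 in PBS, mean ± SD, n = 3), a log2 fold change of -0.74 with SE 0.20 and limma adjusted p = 0.0494. That call was lost without any one of the libraries except NM day 28 replicate 0. Foxm1 (-1.35) and Mybl2, which encodes B-MYB (-1.21), were lower in NM day 28 than in NM day 1, at 5.02 ± 0.964 and 2.94 ± 1.59 FPKM in NM day 28 and 14.2 ± 1.30 and 7.55 ± 1.15 FPKM in NM day 1. The count of 2 was 1 without NM day 1 replicate 0, 1 or 2. E2f1, an activating E2F, stood at 9.12 ± 2.11 in NM day 28, 14.4 ± 2.33 in NM day 1 and 8.85 ± 0.341 FPKM in PBS and did not pass in any comparison. At NM day 1 against PBS limma called 0 of the 15, with 5 at an unadjusted p under 0.05, 1 without NM day 28 replicate 0 and 3 without NM day 28 replicate 1. Of all genes tested, 3.98% were called lower in NM day 28 than in PBS and 6.88% lower than in NM day 1. In NM day 1 against PBS 5.28% were called higher and 4.58% lower. The median of the 15 was 0.02 for NM day 28 against PBS, 0.29 for NM day 1 against PBS and -0.16 for NM day 28 against NM day 1. The regulators with the highest mean were Myc and E2f4, at 69.99 and 54.4 FPKM over all 9 libraries.

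Of 27 S phase genes tested, 12 rose at NM day 1 against PBS and 0 fell (median log2 fold change 0.62, with 5.28% of all genes tested called higher), but at NM day 28 against PBS 0 rose and 2 fell, Cdc7 (-0.94), the kinase that fires origins, and Dut (-0.65), which removes dUTP (median -0.13). Mcm2, a subunit of the replicative helicase, stood at 10.3 ± 2.45 in NM day 28, 19.95 ± 0.539 in NM day 1 and 10.5 ± 1.63 FPKM in PBS (mean ± SD, n = 3). NM day 28 was lower than NM day 1 in 13 of the 27, including Dut (-1.46), Cdc7 (-1.49), Cdt1, a licensing factor (-1.58), and the GINS subunit Gins1 (-1.39). That count was 10 to 15 when single libraries were left out, and the median was -0.91. Of all genes tested, 6.88% were called lower in NM day 28 than in NM day 1 and 3.98% lower than in PBS. The 12 calls at NM day 1 were 0 without NM day 1 replicate 0, 5 without NM day 1 replicate 1, 6 without NM day 1 replicate 2, 5 without PBS replicate 0 or 2 and 3 without PBS replicate 1. The 2 calls at NM day 28 against PBS were 0 without NM day 28 replicate 0, NM day 1 replicate 2 or PBS replicate 1, and 1 lower without NM day 28 replicate 1, NM day 28 replicate 2, NM day 1 replicate 1, PBS replicate 0 or PBS replicate 2, the last with 1 higher.

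Among 12 other cyclin, CDK and CDC25 genes tested, Ccng1, a cyclin gene known as a p53 target, was the only one called higher in NM day 28 than in PBS (154.2 ± 9.36 FPKM in NM day 28 against 85.9 ± 13.1 in PBS, mean ± SD, n = 3), a log2 fold change of 0.85 with SE 0.18 and limma adjusted p = 0.0161, and 0 were lower. Without NM day 28 replicate 0, 0 of the 12 were higher and 1 lower, and without NM day 28 replicate 2, 0 were called. Ccne1, which encodes the other E cyclin, did not lie above PBS in NM day 28 as Ccne2 did. It had 3.72, 1.40 and 1.61 FPKM in NM day 28, 7.25, 4.53 and 6.27 FPKM in NM day 1, and 3.29, 3.50 and 3.69 FPKM in PBS, and was lower in NM day 28 than in NM day 1 (-1.16 ± 0.28, adjusted p = 0.0203 by limma). Against PBS it did not pass in NM day 28 (-0.54 ± 0.28, adjusted p = 0.275). Ccnf, a cyclin of an SCF ubiquitin ligase, was also lower in NM day 28 than in NM day 1 (-0.97), and at NM day 1 Cdk6, a partner of D cyclins, was higher than in PBS at a low level (1.38 ± 0.0719 FPKM in NM day 1 against 0.148 ± 0.140 in PBS). The call at NM day 1 was lost without any NM day 1 or PBS library, and the count was 2 without NM day 28 replicate 1. The 2 calls of NM day 28 against NM day 1 were 0 without NM day 1 replicate 0, with 1 higher in place of them, 1 without NM day 28 replicate 2, NM day 1 replicate 1 or NM day 1 replicate 2, and 3 without NM day 28 replicate 1. Of all genes tested, 3.07% were called higher in NM day 28 and 5.28% in NM day 1 than in PBS. In NM day 28 against NM day 1 6.88% were called lower. The median of the 12 was -0.08 for NM day 28 against PBS, 0.33 for NM day 1 against PBS and -0.26 for NM day 28 against NM day 1. Cdk2, Cdk4 and Ccnd2 did not pass in any comparison. The kinase partner of cyclin E, Cdk2, had 13.8 ± 6.04 FPKM in NM day 28, 18.1 ± 1.8 in NM day 1 and 11.8 ± 0.711 in PBS, and Cdk4 had 66.3 ± 13.1 FPKM in NM day 28, 67.9 ± 16.7 in NM day 1 and 53.7 ± 7.56 in PBS.

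Of 14 genes of CDK inhibitors and other brakes, Cdkn1a, which encodes p21, an inhibitor of CDK2 that p53 induces, was the only one called higher in NM day 28 than in PBS, and 0 were lower. It had 61.7, 78.9 and 58.1 FPKM in NM day 28, 104.1, 61.3 and 53.9 FPKM in NM day 1, and 13.4, 11.2 and 6.98 FPKM in PBS. Both NM groups lay above PBS, by a log2 fold change of 2.57 ± 0.27 in NM day 28 (SE, adjusted p = 0.000397 by limma), and overlapped each other (NM day 28 against NM day 1, log2 fold change -0.09, SE 0.27, limma adjusted p = 0.864). At NM day 1 Cdkn1a (2.67) was higher than in PBS. So were Btg1 (1.01) and Tob1 (1.01), which both encode antiproliferative proteins of a family that does not include p21. None of the other 13 passed in NM day 28 against PBS, among them Cdkn2c, which encodes an inhibitor of CDK4 and CDK6, at 2.63 ± 0.246 FPKM in NM day 28 against 5.61 ± 1.31 FPKM in PBS (-0.85 ± 0.26, adjusted p = 0.0754). Against NM day 1, Cdkn2c (-1.34), Btg1 (-0.70), the CDK1-inhibiting kinase gene Wee1 (-1.22) and the stress gene Gadd45a (-0.69) were lower in NM day 28. The median of the 14 was -0.11 for NM day 28 against PBS, 0.25 for NM day 1 against PBS and -0.27 for NM day 28 against NM day 1. Those 4 calls were 1 without NM day 1 replicate 0 or NM day 28 replicate 0 and 2 without NM day 1 replicate 1 or NM day 28 replicate 2. Of all genes tested, 3.07% were called higher in NM day 28 and 5.28% in NM day 1 than in PBS. In NM day 28 against NM day 1 6.88% were called lower.

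Genes with the most similar pattern were ranked by Pearson's r of log2(FPKM + 1) over the 9 libraries, among 8469 genes with a mean of at least 2 FPKM, as a description. Closest to Ccne2 were Acy3 (r = 0.973), Tie1 (0.972), Ptcd3 (0.962), Kdm1a (0.958) and Mfsd6 (0.953). Ptcd3, a mitochondrial ribosome protein, had 84.6 ± 25.5 FPKM in NM day 28, 26.8 ± 1.58 in NM day 1 and 20.5 ± 1.07 in PBS (mean ± SD, n = 3). Among the closest to the mean standardised level of the 5 mitotic genes were Snrpd1 (0.973), the spindle genes Nusap1 (0.970) and Ska1 (0.968), and Tap1 (0.962). Closest to Ccnd1 were Igbp1 (0.966), Tnip1 (0.964), Reep5 (0.950), Capns1 (0.940) and Oplah (0.936). The libraries fall into 3 groups, so such values rest largely on the group means. Among the members, r was between 0.85 and 0.94 for each pair of Mki67, Ccna2, Cdk1 and Kif11 and between -0.06 and 0.23 for Ccnb1 with each of them. Ccne2 stood at -0.83 with Mki67, -0.77 with Ccna2, -0.85 with Cdk1, -0.69 with Kif11, -0.04 with Ccnb1 and -0.80 with Ccnd1.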

How the data were processed

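RNA of alveolar macrophages collected by lung massage was made into TruSeq libraries and sequenced in pairs of 75 bp reads, per the labels' protocols. The authors deposited FPKM values for 18197 RefSeq transcript rows, made with TopHat and Cuffdiff on rat build rn4 per the submitters' processing notes, with versions, annotation and strand not given in the sources used here. A RefSeq table (GRCr8) named 17189 rows (94.5%). Transcripts of a symbol were summed to 17109 genes, and 9885 with at least 1 FPKM in at least 3 of 9 libraries entered limma 3.58.1 (R 4.3.3; eBayes with trend, 3 group means) on log2(FPKM + 1), which shrinks fold changes of low genes. P-values were adjusted by Benjamini-Hochberg over all genes tested. The fit was tested on simulated data. Absolute depth is unknown. Figures were made with Python 3.11.15 and matplotlib 3.10.9. Members, gene lists and alternatives were chosen with earlier results of these data known, and list counts under alternatives were added after seeing the data. The genes named beside the members were those called with the smallest p, up to 4 per list and comparison, a fixed set of regulators (Cdkn1a, Ccne1, Ccnd2, Cdk2, Cdk4, Foxm1 and E2f1) and the 5 of most similar pattern, of which 1 is not reported here. The marker genes named were chosen after their values were seen. Pairing by replicate number was not given by the labels.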

Additional observations from a re-analysis of the deposited data

Results flagged for a closer look

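The difference from PBS was not the same at the later and the earlier time for 5 of the 7 genes, by limma's test of NM day 28 against NM day 1 over 9885 genes. The log2 fold change of that difference was -1.49 for Mki67, -1.60 for Ccna2, -1.77 for Cdk1, -1.34 for Kif11 and 0.95 for Ccne2 (adjusted p = 0.000534, 0.00158, 0.00326, 0.00228 and 0.00785). In each of the 5 genes the 3 NM day 28 libraries lay on the same side of the 3 NM day 1 libraries. Groups of 3 libraries were too small to search for single outlying libraries. Among the NM day 28 libraries, replicate 1 had the lowest value of 6 of the 7 genes and the highest of Ccne2.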

How the results depend on the processing

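The calls of 7 genes in 3 comparisons gave 417 refits, of which 367 kept direction and side of the threshold. The count of members called in NM day 1 against PBS (1) was 0 with a pseudocount of 0.1, no filter, a filter of 5 FPKM, quantile normalisation, isoforms tested singly or robust eBayes, 2 with library weights (whose estimation stopped short of convergence), and 0 to 1 without single libraries. In NM day 28 against PBS (5) it was 3 with no filter, median-of-ratios scaling, isoforms tested singly or only the 6 libraries compared, and 2 to 5 without single libraries. In NM day 28 against NM day 1 it was 5 throughout. Genes called in all numbered 975, 696 and 1150 in these comparisons, 318 to 1374, 271 to 793 and 633 to 1403 without single libraries. In both comparisons with PBS the highest of these counts came without NM day 28 replicate 1. The lowest came without NM day 1 replicate 0 for NM day 1 and without PBS replicate 1 for NM day 28. Genes called numbered 433 with only the 6 libraries compared and 1155 with library weights in NM day 28 against PBS, and 2004 with library weights in NM day 28 against NM day 1. The excess of Ccne2 over the mitotic genes in NM day 28 was 1.26 with a pseudocount of 5. Ccnb1, which passed in no setting, changed sign. Its log2 fold change in NM day 1 against PBS was -0.12 after quantile normalisation and -0.07 to 0.42 without single libraries (-0.03 without NM day 1 replicate 2, the lowest without PBS replicate 2). In NM day 28 against PBS it was -0.13 without PBS replicate 2. In NM day 28 against NM day 1 it was 0.23 after quantile normalisation and -0.31 to 0.13 without single libraries (0.00 without NM day 1 replicate 0, 0.07 without NM day 28 replicate 1, the highest without NM day 1 replicate 2). The filter of 5 FPKM left Ccnb1 untested. The cause was not tested.

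Same-numbered libraries deviated from their group means with correlations from -0.104 to 0.196, and 4 of 9 libraries correlated best with their own number, so the numbers were not taken as pairs. With the replicate block 0, 4 and 5 members were called in NM day 1 against PBS, NM day 28 against PBS and NM day 28 against NM day 1. Groups of 3 and an unknown depth limit the precision, with the largest SE of the 7 genes for Cdk1 (0.30) and Ccnb1 (0.29).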
